A study of Homo sapiens with 6 samples.

Results

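RMRP, RPPH1, RN7SK and TERC are the RNA parts of 4 ribonucleoprotein (RNP) particles, and they were selected by gene symbol from the deposited expression table of 21863 gene symbols. Of the 4 RNAs, RMRP, RPPH1 and TERC had values, and RN7SK was not analysed here. The selection was made with levels of these RNAs in these libraries already known, so their values are given as a description, with no test. The study asked which transcripts are bound by Argonaute 2 (Ago2), the protein that holds a microRNA (miRNA) against its target, after *miR-195* or *miR-497* is introduced into Hep G2 cells. Hep G2 is an established human liver tumor cell line. There were 3 conditions: cells that received a synthetic mimic of *miR-195*, cells that received a mimic of *miR-497*, and non-transfected (NT) cells. The mimics were given at 5 nM for 24 h, and the labels give 0 h for the NT cells. From each condition, 1 library was made of total RNA and 1 of RNA recovered with an anti-Ago2 antibody (Ago2-IP). In all, 6 libraries were sequenced, 1 per group. None was from a control antibody, so binding to Ago2 and nonspecific recovery cannot be told apart. NT cells received no control duplex, so the mimic and the transfection itself cannot be told apart in these comparisons. Differences below therefore have no replicate check.

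RMRP is the RNA of RNase MRP, a nucleolar enzyme that takes part in the maturation of ribosomal RNA. RPPH1 is the catalytic RNA of RNase P, which removes the 5′ leader of precursor tRNAs and shares most of its proteins with RNase MRP. TERC is the template RNA of telomerase, and its 3′ end folds like an H/ACA box small nucleolar RNA. 7SK RNA, encoded by RN7SK, holds the elongation factor P-TEFb in an inactive particle. RMRP, RPPH1 and 7SK RNA are made by RNA polymerase III from promoters that lie outside the transcribed sequence, whereas TERC is made by RNA polymerase II. The mature forms are short, structured and carry no poly-A tail.

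The sequences of the 2 mimicked miRNAs and of the RNAs are shown so that seed matches between them can be looked up. The mature miRNAs (RefSeq, GRCh38.p14) are given 5′ to 3′ with the seed, bases 2 to 8, in capitals, and the 2 seeds were identical.
hsa-miR-195-5p: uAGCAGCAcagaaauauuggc
hsa-miR-497-5p: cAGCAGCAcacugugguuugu

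RMRP is annotated in GRCh37 at chr9:35657751-35658014 on the minus strand, as a single exon of 264 bases with no coding region. Its GC content was 63.3%. It is printed in the sense of the RNA, with the longest part of the seed match TGCTGCT that it holds in capitals.
RMRP: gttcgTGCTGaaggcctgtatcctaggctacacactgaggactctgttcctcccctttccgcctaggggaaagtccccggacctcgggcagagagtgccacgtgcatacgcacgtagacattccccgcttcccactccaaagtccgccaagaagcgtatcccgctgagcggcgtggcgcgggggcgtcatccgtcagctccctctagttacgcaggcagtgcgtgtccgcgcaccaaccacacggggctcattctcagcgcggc

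The complete 7-base seed match TGCTGCT, searched on the strand of the RNA, occurred 0 times in RMRP, and its longest part was the 5 letters TGCTG starting at base 6. The shorter 6-base match GCTGCT was also found 0 times. For comparison, TGCTGCT was held by 6.30% and GCTGCT by 17.3% of the first 264 bases of 53604 annotated transcripts, 1 per gene. The absence of these letters says nothing on whether Ago2 bound the RNA.

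TERC is annotated at chr3:169482308-169482848 on the minus strand, as a single non-coding exon of 541 bases with a GC content of 66.7%. The RPKM values imply a transcript of 451 bases for TERC and of 268 for RMRP, so the annotated sequences described here differ in length from the transcripts behind the values. Its first 300 bases, chr3:169482549-169482848, are printed with the telomere template (CTAACCCTAAC, bases 46 to 56, the longest run that matches the complement of the telomere repeat TTAGGG) and the 1 occurrence of GCTGCT (bases 182 to 187) in capitals.
TERC: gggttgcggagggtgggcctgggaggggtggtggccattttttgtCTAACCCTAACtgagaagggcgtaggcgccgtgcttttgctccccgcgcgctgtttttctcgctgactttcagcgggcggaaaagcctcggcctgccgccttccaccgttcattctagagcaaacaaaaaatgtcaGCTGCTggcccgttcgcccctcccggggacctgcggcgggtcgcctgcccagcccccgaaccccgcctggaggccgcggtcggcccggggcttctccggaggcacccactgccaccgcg

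TGCTGCT occurred 0 times in the 541 bases of TERC. Over the first 541 bases of 41364 transcripts, 12.8% held TGCTGCT, 32.1% held GCTGCT and 0.00967% held the template. GCTGCT followed by A, a letter complementary to the first base of *miR-195* but not of *miR-497*, was absent from both RNAs. This word, GCTGCTA, was held by 1.86% of the windows of 264 bases and 3.78% of those of 541 bases. In TERC the printed GCTGCT is followed by G, the letter complementary to the first base of *miR-497*. This compares letters only, and pairing at that base was not tested. The share of windows with that longer word was not counted.

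The 300 bases around the start of RMRP, chr9:35657965-35658264 on the minus strand (250 before and 50 after the annotated start), are printed because RMRP and RPPH1 changed together in total RNA, and because RMRP is a polymerase III gene. The word TATAAA, searched on both strands, is in capitals, at positions -33 to -28 from the start.
RMRP promoter: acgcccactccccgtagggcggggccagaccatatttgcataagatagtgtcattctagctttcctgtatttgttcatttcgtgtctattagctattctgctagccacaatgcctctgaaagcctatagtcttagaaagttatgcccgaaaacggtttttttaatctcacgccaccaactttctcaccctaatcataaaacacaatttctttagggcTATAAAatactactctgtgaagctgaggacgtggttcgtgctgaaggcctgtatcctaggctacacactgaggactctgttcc

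TATAAA was held on either strand by 11.5% of 35116 promoters of the same length. The TERC promoter, chr3:169482799-169483098, held the same word on the opposite strand at -30 to -25 and CCAAT at -58 to -54, a word held by 34.6% of promoters. Downstream of the annotated end of RMRP the strand of the RNA carried a run of T, the type of signal at which polymerase III stops, shown in capitals for chr9:35657731-35657750.
RMRP 3′ flank: tgTTTTTTgttcccgagacc

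Values are RPKM, that is, read counts divided by transcript length and by the mapped reads of the library, so that levels of different genes can be compared. The number of reads behind each value was inferred from the steps between RPKM values, and the libraries corresponded to an estimated 24734700 to 30968400 mapped reads in total RNA and 10653800 to 16829800 in Ago2-IP. Intervals are 95% counting intervals and cover counting error only, since PCR copies are not independent molecules. Markers of hepatocyte-derived cells were present: AFP reached 4295 to 4884 RPKM in total RNA, APOA2 3133 to 3516 and ALB 53.4 to 61.4, although TTR was only 1.52 to 4.81. The leukocyte genes PTPRC and CD3E were listed at 0 in all 6 libraries, and COL1A1 and PECAM1 stayed at or below 0.412 RPKM. The labels name 1 mRNA library kit for all libraries. The study's methods state that libraries were made with or without poly-A selection without saying which. The study calls the total RNA libraries mRNA-seq, and their deposited values are headed mRNA. Its methods also give a far smaller input of Ago2-IP RNA than of total RNA. The type of RNA (total or Ago2-IP) and such differences in preparation cannot be told apart in what follows.

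RMRP was the most abundant entry of the table in each Ago2-IP library. In total RNA it was above the median of all genes, those at 0 included, in every library, furthest with *miR-497*. Against the median of genes above 0 it stood at 0.356 times in NT cells, 1.02 times with *miR-195* and 6.20 times with *miR-497*. In Ago2-IP it measured 4826 RPKM in NT cells (21769 reads), 5600 RPKM with *miR-195* (20436 reads) and 3511 RPKM with *miR-497* (10025 reads), and it ranked 1 in all 3 libraries. In total RNA it measured 1.96 RPKM in NT cells (13 reads, interval 1.04 to 3.35), 5.34 RPKM with *miR-195* (42 reads, 3.85 to 7.22) and 34.0 RPKM with *miR-497* (282 reads, 30.1 to 38.2). The 3 total RNA values did not overlap in their intervals, and RMRP ranked 9930, 7784 and 2161 in them. The lowest Ago2-IP value was thus 103 times the highest total RNA value, both being from the *miR-497* condition.

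RPPH1 was next among the 3 RNAs in Ago2-IP and close to RMRP in total RNA. In Ago2-IP it measured 171 RPKM in NT cells (981 reads), 863 RPKM with *miR-195* (4008 reads) and 401 RPKM with *miR-497* (1456 reads), with ranks of 11, 4 and 7. In total RNA it measured 2.49 RPKM in NT cells (21 reads, interval 1.54 to 3.81), 6.30 RPKM with *miR-195* (63 reads, 4.84 to 8.06) and 34.0 RPKM with *miR-497* (359 reads, 30.6 to 37.7). The order of the 3 conditions in total RNA was therefore the same as for RMRP, whereas in Ago2-IP the NT library was the lowest for RPPH1 and the *miR-497* library the lowest for RMRP.

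TERC had only a few reads in total RNA and was above the median of all genes in Ago2-IP. In total RNA it measured 0.179 RPKM in NT cells (2 reads, interval 0.0217 to 0.648), 0.151 RPKM with *miR-195* (2 reads, 0.0183 to 0.546) and 0.215 RPKM with *miR-497* (3 reads, 0.0443 to 0.628). The 3 intervals overlapped almost entirely, so no difference between conditions was detectable at this depth. In Ago2-IP it measured 5.14 RPKM in NT cells (39 reads, 3.65 to 7.02), 11.4 RPKM with *miR-195* (70 reads, 8.89 to 14.4) and 5.41 RPKM with *miR-497* (26 reads, 3.53 to 7.93). The NT and *miR-497* values were within each other's interval, and the *miR-195* value lay above both intervals. In the order of levels, RMRP and RPPH1 had overlapping intervals in every total RNA library and TERC was the lowest throughout.

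**Figure D1:**
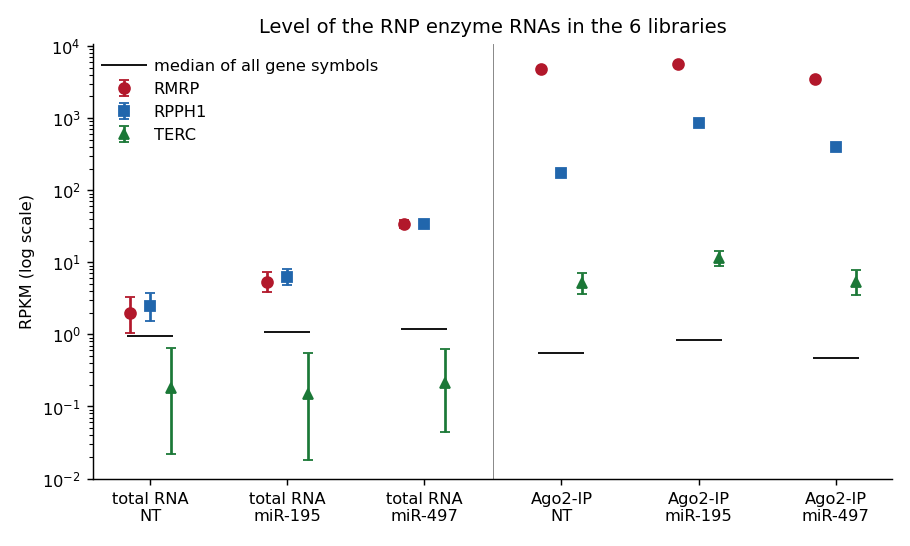
RPKM (log scale) of RMRP, RPPH1 and TERC in each of the 6 libraries, with 95% counting intervals as error bars and the median of all gene symbols as a black dash. RMRP and RPPH1 lie near the median in NT total RNA and at 34.0 RPKM with miR-497, while in Ago2-IP RMRP lies between 3511 and 5600 RPKM.

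The 3 RNAs together made up 0.00145% of the summed RPKM of the NT total RNA library, 0.00379% after *miR-195* and 0.0205% after *miR-497*. In Ago2-IP they made up 6.67%, 5.58% and 5.82% of it in the same order. The sums themselves differed, with 319833 in NT total RNA and 75019 in NT Ago2-IP, so these shares have unlike denominators. As a share of the mapped reads, without the correction for length, the 3 RNAs took 0.135%, 0.180% and 0.108% of the Ago2-IP libraries. In the total RNA libraries they took 0.000146%, 0.000365% and 0.00208%. In bulk RNA, fewer cells making an RNA and less of it per cell cannot be told apart.

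The first comparison was Ago2-IP against total RNA within a condition. All 3 RNAs were past 2-fold higher in Ago2-IP in each of the 3 conditions. In NT cells the ratio of RPKM was 2461 for RMRP (interval 1439 to 4623), 68.7 for RPPH1 (44.7 to 111) and 28.7 for TERC (7.42 to 245, resting on 2 reads in total RNA). These were ranks 1, 28 and 68 of 14101 genes above 0 in both libraries, of which 6.69% were past 2-fold higher and 69.1% past 2-fold lower. With *miR-195* the ratio was 1049 for RMRP (775 to 1455), 137 for RPPH1 (107 to 179) and 75.4 for TERC (20.1 to 635), against a background of 9.05% of genes past 2-fold higher and 53.7% lower. With *miR-497* it was 103 for RMRP (91.8 to 117), 11.8 for RPPH1 (10.5 to 13.3) and 25.2 for TERC (7.72 to 130), against a background of 7.07% higher and 73.1% lower. RMRP and RPPH1 thus had their lowest ratio with *miR-497*, where their total RNA level was highest, and for TERC the 3 intervals overlapped.

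The middle of all genes was not at equality in these comparisons: the median log2 ratio was -1.62 in NT cells, -1.09 after *miR-195* and -1.94 after *miR-497*. With libraries rescaled by the median of ratios over genes, the split in NT cells was 23.6% higher and 18.5% lower, and the log2 ratio in NT cells went from 11.27 to 12.94 for RMRP and from 6.10 to 7.77 for RPPH1. Among genes of at least 1 RPKM in both libraries of a condition, RMRP ranked 1 of 9293 in NT cells, 1 of 10146 with *miR-195* and 6 of 8827 with *miR-497*. RPPH1 ranked 2, 6 and 29 in the same libraries. Without that minimum the ranks with *miR-195* were 3 for RMRP, 19 for RPPH1 and 33 for TERC of 14587 genes. With *miR-497* they were 13, 179 and 96 of 14000.

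Proteins of the same particles are encoded by ordinary mRNAs, and their transcripts were mostly lower in Ago2-IP than in total RNA, as were 69.1% of all genes past 2-fold in NT cells. Of 11 genes for proteins of RNase MRP and RNase P, 11 were past 2-fold lower in Ago2-IP than in total RNA in NT cells, with a median log2 ratio of -2.96, from -3.24 for RPP21 to -1.26 for RPP14. Relative to the median of all genes this was -1.35. Of 11 genes of telomerase proteins and their assembly factors, 10 were past 2-fold lower (median -2.98, or -1.36 relative to all genes), from -4.07 for NOP10, an H/ACA core protein, to -0.96 for TERT, the reverse transcriptase. Of 7 genes of the 7SK particle and P-TEFb, 5 were past 2-fold lower (median -2.06, or -0.45 relative to all genes), a share close to that of all genes, and the highest was CCNT1, the cyclin of P-TEFb, at -0.20. The list of 11 RNA polymerase III genes held promoter factors and SSB, an RNA-binding protein that is not a promoter factor. Of these, 10 of 11 were past 2-fold lower (median -1.84, or -0.23 relative to all genes), with SSB lowest at -3.89.

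Many other RNAs that lack a poly-A tail were also higher in Ago2-IP, some of them by more than RPPH1 and TERC. Box C/D RNA genes, which guide 2′-O-methylation of ribosomal RNA, had 75 of 121 past 2-fold higher in NT cells (median log2 ratio 1.23), and 9 of the 121 reached 10-fold. Box H/ACA RNA genes, which guide pseudouridylation, were counted together with Cajal body RNA genes, which are not all of that type. Of these, 68 of 95 were past 2-fold higher (median 1.97), and 21 of the 95 reached 10-fold. Histone cluster genes, whose mRNAs mostly end in a stem-loop in place of a poly-A tail, had 28 of 31 past 2-fold higher (median 3.95), and 20 of the 31 reached 10-fold. Over all genes, 6.69% were past 2-fold higher and 190 of 14101 reached 10-fold. Most of the 190 lay outside these groups. After RMRP the highest ratios in NT cells belonged to the Cajal body RNAs SCARNA2 (1236), SCARNA5 (582) and SCARNA10 (199). The linker histone gene HIST1H1E (188) and SCARNA6 (177) came next. Then came PRSS48 (150), TAS2R30 (150), TMEM14E (143) and FAM196A (136), which are outside these groups. All of these were above RPPH1 and TERC. SCARNA2 exceeded RMRP with *miR-195* (log2 ratio 10.61 against 10.03). With *miR-497* the genes above RMRP (6.69) included SNORD15B (8.78) and SCARNA5 (7.67). The entries next to RMRP in level in NT Ago2-IP were SNORD17 with 787 RPKM and the nuclear long non-coding RNA MALAT1 with 527 RPKM. The part that library preparation has in these ratios was not tested.

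**Figure D2:**
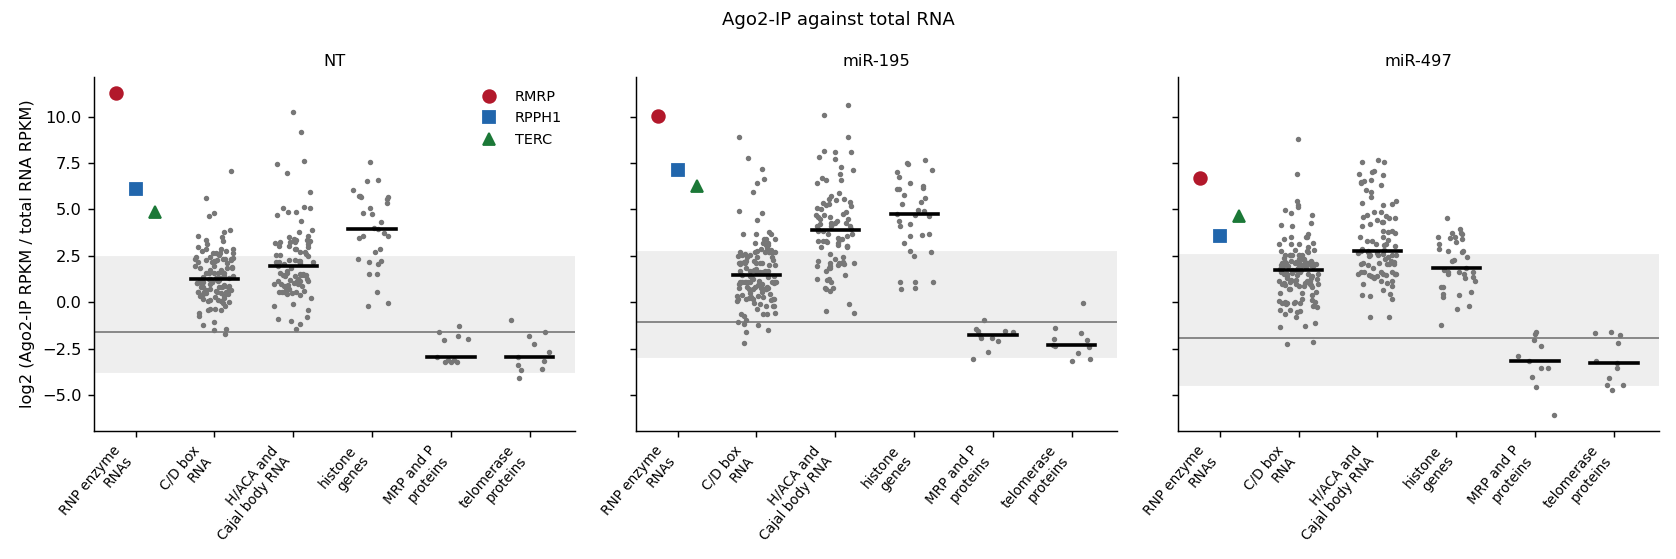
RPKM in Ago2-IP over RPKM in total RNA (log2 ratio) in NT, miR-195 and miR-497 cells for RMRP, RPPH1 and TERC (colored symbols) and for the genes of 5 groups (grey points, black bar at the group's median). The grey line is the median of all genes and the grey band holds the middle 95% of them. The 3 RNAs lie above the band in every condition, and the genes of the protein partners lie below the line apart from a few.

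The second comparison was each mimic against NT cells in total RNA. Both comparisons use the same NT library. RMRP and RPPH1 were higher with both mimics, and the folds were larger with *miR-497*. With *miR-195* the change was 2.72-fold for RMRP (13 to 42 reads, interval 1.43 to 5.53) and 2.53-fold for RPPH1 (21 to 63 reads, 1.52 to 4.36), so that 2 of 3 RNAs were past 2-fold higher against a background of 5.81% of 14740 genes higher and 3.2% lower. With *miR-497* it was 17.3-fold for RMRP (13 to 282 reads, 9.97 to 32.9) and 13.7-fold for RPPH1 (21 to 359 reads, 8.80 to 22.3), again 2 of 3 RNAs, against a background of 6.67% of 14768 genes higher and 2.11% lower. These were ranks 3 and 6 among all genes, and ranks 1 and 2 among 10794 genes of at least 1 RPKM in both libraries. With *miR-195* the corresponding ranks were 22 and 29 of 10752. TERC had a ratio of 0.843 with *miR-195* (0.0611 to 11.6) and 1.20 with *miR-497* (0.137 to 14.3), intervals that hold large changes in either direction.

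Set directly against each other, total RNA of *miR-195* cells held 0.157 times the RMRP (interval 0.111 to 0.218) and 0.185 times the RPPH1 (0.139 to 0.243) of *miR-497* cells. These 2 RNAs were the lowest and next lowest of 10938 genes of at least 1 RPKM in both libraries. Past 2-fold lower were 2 of 3 RNAs, against 3.64% of 15042 genes, with 3.12% higher. TERC had a log2 ratio of -0.51 in this comparison, from 2 and 3 reads.

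None of the protein partners changed past 2-fold in total RNA with either mimic, but few genes of similar level did. All partners except RPP25 reached 1 RPKM in the total RNA libraries. Among genes of at least 1 RPKM in both libraries, the *miR-497* comparison had 1.58% past 2-fold higher and 0.213% lower. For *miR-195* these shares were 0.995% and 0.986%. The lack of such changes therefore does not set the partners apart from other genes. For the 11 RNase MRP and RNase P proteins the median log2 change was -0.17 after *miR-195* and 0.01 after *miR-497*, with a range in the latter from -0.39 for RPP30 to 0.79 for RPP25. For the 11 telomerase genes it was -0.21 and -0.06, with TERT lowest at -0.72 with *miR-195*. For the 7 genes of the 7SK particle and P-TEFb it was -0.22 and 0.12, with HEXIM2, an inhibitor of P-TEFb, highest at 0.65 and 0.85. For the 11 polymerase III genes (SSB and promoter factors, among them the SNAPc subunits and BRF2 that read promoters of the RMRP type), it was -0.17 and -0.18. Over all genes the median was 0.02 and 0.09.

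In total RNA the 4 genes adjacent to these RNAs were within 2-fold of their NT level with either mimic. CCDC107, which starts 273 bases from RMRP on the opposite strand (chr9:35658287-35661508), had 4.96 RPKM in NT total RNA, 4.82 with *miR-195* and 5.87 with *miR-497*. ARHGEF39 (listed under its older symbol C9orf100), 858 bases away on the strand of RMRP, had 3.77, 2.38 and 3.63 RPKM. PARP2, the neighbor of RPPH1 in the RefSeq gene table of GRCh38.p14, had 44.2, 36.3 and 40.6 RPKM. ACTRT3 (listed as ARPM1), 1861 bases from TERC, had 0.686, 0.630 and 0.742 RPKM.

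Among the other RNAs without a poly-A tail, histone cluster genes had a median change of about 2-fold with *miR-497*, and small nucleolar RNA genes had median changes near 0. Of 32 histone genes 16 were past 2-fold higher and 0 past 2-fold lower in total RNA with *miR-497* (median log2 change 1.04), the highest being HIST1H1E at 17.2-fold, from 2 to 43 reads. With *miR-195* the counts were 5 higher and 4 lower of 31 (median 0.13). Over all genes, 6.67% were past 2-fold higher and 2.11% lower with *miR-497*, and 5.81% and 3.2% with *miR-195*. Box C/D genes gave 11 higher and 11 lower of 121 with *miR-497* (median 0.02), and box H/ACA and Cajal body genes 11 higher and 6 lower of 90 (median -0.02). SCARNA2 was the highest of the latter, at a log2 change of 2.68 from 0.0963 to 0.615 RPKM. Whether a difference in the preparation of the *miR-497* total RNA library has a part in the values of RMRP and RPPH1 was not tested.

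**Figure D3:**
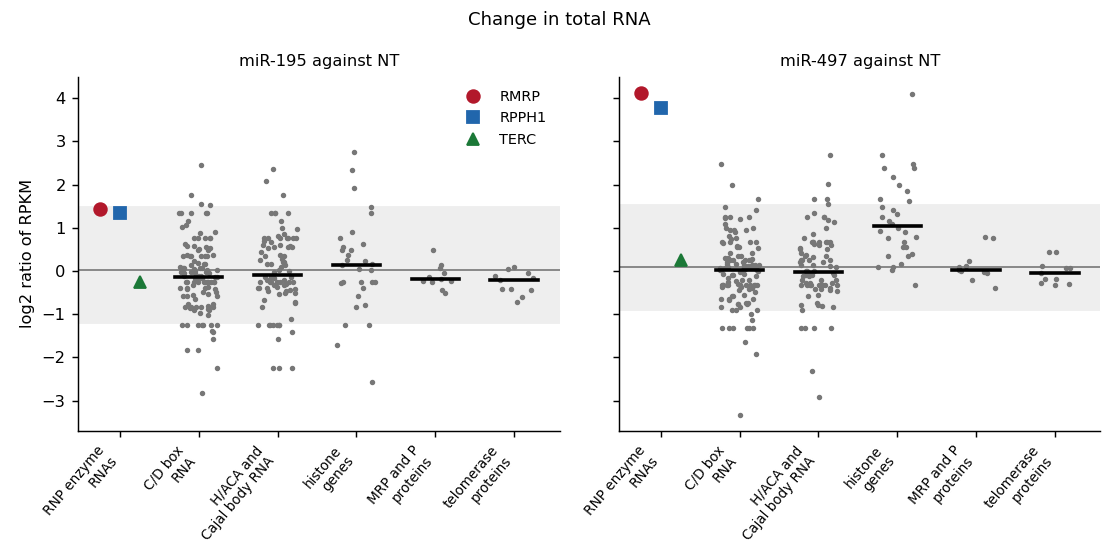
Log2 ratio of RPKM in total RNA of each mimic against NT for RMRP, RPPH1 and TERC (colored symbols) and for genes of 5 groups (grey points, black bar at the median). The grey line is the median of all genes and the band the middle 95% of them. With miR-497 RMRP and RPPH1 stand at 4.11 and 3.77, above nearly all other points, with HIST1H1E at 4.10 beside them.

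In Ago2-IP the 3 RNAs did not move together. RPPH1 was 5.05-fold higher with *miR-195* (interval 4.71 to 5.42) and 2.34-fold higher with *miR-497* (2.16 to 2.54) than in NT cells. TERC was 2.22-fold higher with *miR-195* (1.48 to 3.37) and had a ratio of 1.05 with *miR-497* (0.616 to 1.77). RMRP had a ratio of 1.16 with *miR-195* (1.14 to 1.18) and 0.727 with *miR-497* (0.710 to 0.745), both within 2-fold. Past 2-fold higher were 2 of 3 RNAs with *miR-195*, where 23.7% of 14291 genes were higher and 2.58% lower, and 1 of 3 with *miR-497*, where 3.48% of 13866 genes were higher and 6.27% lower.

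The Ago2-IP libraries differed in their center, with a median log2 change over all genes of 0.48 after *miR-195* and of -0.23 after *miR-497*. Relative to that median RPPH1 was 1.86 higher with *miR-195* and 1.46 higher with *miR-497* on the log2 scale. TERC stood at 0.67 and 0.30, and its call with *miR-195* was lost under both rescalings (log2 changes of 0.62 and 0.52). RMRP stood at -0.26 and -0.23 on the same relative scale. The sign of the RMRP change with *miR-195*, 0.21 on the RPKM scale, was therefore set by the scaling, since it was -0.32 after median-ratio scaling and -0.42 with the summed RPKM of each library made equal. With median-ratio scaling 8.72% of genes were past 2-fold higher and 7.90% lower with *miR-195*, in place of 23.7% and 2.58%.

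Between the mimics in Ago2-IP, *miR-195* cells held 2.15 times the RPPH1 (interval 2.03 to 2.29), 2.11 times the TERC (1.33 to 3.44) and 1.59 times the RMRP (1.56 to 1.63) of *miR-497* cells. Past 2-fold higher were 2 of 3 RNAs, but so were 35.3% of 13992 genes (2.07% were lower), whose median log2 ratio was 0.67. After median-ratio scaling the log2 ratios were 0.34 for RPPH1, 0.31 for TERC and -0.09 for RMRP, and 10.3% of genes were past 2-fold higher and 11.8% lower.

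In Ago2-IP, 23.7% of all genes were past 2-fold higher and 2.58% lower with *miR-195*, and 3.48% higher and 6.27% lower with *miR-497*, and the counts of the groups stand against these shares. Of the 11 RNase MRP and RNase P proteins, 3 were past 2-fold higher with *miR-195*, a share near that of all genes, up to 1.35 on the log2 scale for RPP25L (listed as C9orf23), and 2 were past 2-fold lower with *miR-497*, down to -2.70 for RPP21. Box H/ACA and Cajal body genes had 76 of 106 past 2-fold higher with *miR-195* (median 1.73, or 1.26 relative to all genes) and 50 of 102 with *miR-497* (median 0.99, or 1.22 relative to all genes). Box C/D genes had 24 higher and 22 lower of 141 with *miR-195*, with a median of 0.03 that became -0.45 relative to all genes, and 20 higher and 8 lower of 140 with *miR-497*. Histone genes had 23 higher of 41 with *miR-195* and 12 lower of 37 with *miR-497*.

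**Figure D4:**
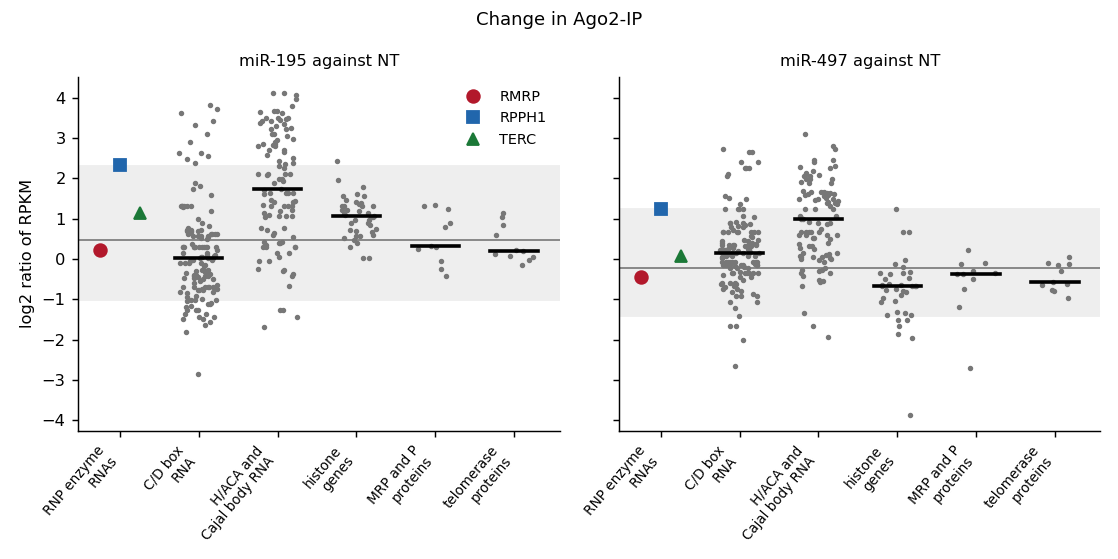
Log2 ratio of RPKM in Ago2-IP of each mimic against NT for RMRP, RPPH1 and TERC (colored symbols) and for genes of 5 groups (grey points, black bar at the median). The grey line is the median of all genes and the band the middle 95% of them. RPPH1 stands at 2.34 for miR-195 and at 1.23 for miR-497, and RMRP lies just below the median line in both panels.

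The ratio of RPPH1 to RMRP within a library does not depend on how libraries are scaled. In total RNA it was 1.27 in NT cells (interval 0.607 to 2.76), 1.18 with *miR-195* (0.785 to 1.79) and 1.0 with *miR-497* (0.854 to 1.17), so that each interval held equality. In Ago2-IP it was 0.0354 in NT cells (0.0332 to 0.0378), 0.154 with *miR-195* (0.149 to 0.159) and 0.114 with *miR-497* (0.108 to 0.121). RMRP was thus 28.2 times RPPH1 in NT Ago2-IP, 6.49 times after *miR-195* and 8.76 times after *miR-497*, and the 3 intervals did not overlap. TERC stood at 0.00106 of RMRP in NT Ago2-IP, 0.00204 with *miR-195* and 0.00154 with *miR-497*.

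**Figure D5:**
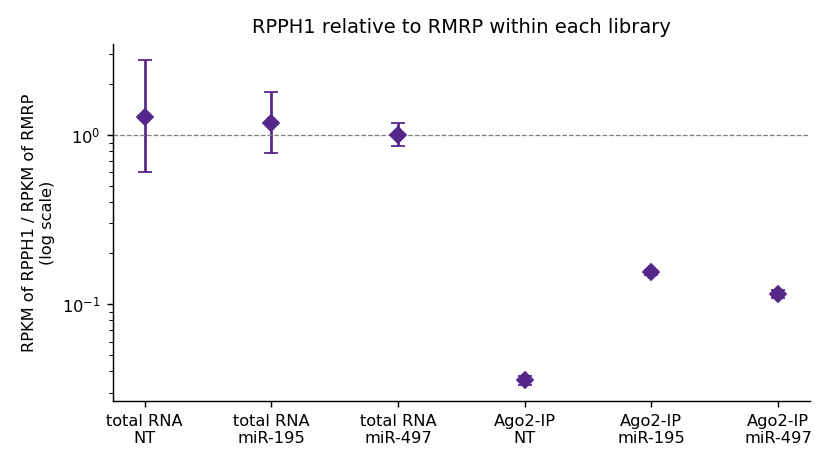
Ratio of RPPH1 RPKM to RMRP RPKM (log scale) in each library, with 95% counting intervals. The dashed line is a ratio of 1. The total RNA libraries lie at 1.0 to 1.27 and the Ago2-IP libraries at 0.0354 to 0.154.

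The study ranked candidate targets by a fold enrichment score. In it the ratio of Ago2-IP to total RNA in mimic-treated cells is divided by that in NT cells. The study's candidates were limited to genes with a predicted target sequence in the 3′ untranslated region, and then to those lowered on expression arrays. Neither filter was applied here. For *miR-195* the score was 0.426 for RMRP (interval 0.229 to 0.794), 2.00 for RPPH1 (1.21 to 3.29) and 2.63 for TERC (0.357 to 19.4). The RPPH1 value fell just short of 2-fold, so 1 of 3 RNAs was past 2-fold higher, against 20.4% of 13749 genes, and 1 was past 2-fold lower, against 3.7%. For *miR-497* it was 0.0420 for RMRP (0.0241 to 0.0733), 0.172 for RPPH1 (0.110 to 0.269) and 0.879 for TERC (0.137 to 5.63). RMRP and RPPH1 were past 2-fold lower, as were 16.3% of 13430 genes (3.1% were higher), and RMRP was the lowest and RPPH1 rank 4 from the bottom of 8637 genes of at least 1 RPKM in all 4 libraries of the score. These low scores came with the rise in total RNA, since the log2 change in Ago2-IP with *miR-497* was -0.46 for RMRP and 1.23 for RPPH1. Histone genes had 25 of 31 past 2-fold lower in the *miR-497* score (median -2.05).

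Of 12 further short structured RNA genes (minor spliceosomal, vault and Y RNAs and others), most had few reads. The minor spliceosomal RNA genes RNU11 and RNU12 were listed at 0 in all 3 total RNA libraries. In Ago2-IP, RNU11 measured 7.04 RPKM in NT cells (16 reads), 180 RPKM with *miR-195* (331 reads) and 38.2 RPKM with *miR-497* (55 reads). RNU12 measured 1.99 RPKM (5 reads), 58.7 RPKM (119 reads) and 16.4 RPKM (26 reads) in the same order. Both were therefore highest with *miR-195* and lowest in NT cells, the order also seen for RPPH1. VTRNA1-3, a vault RNA made by polymerase III, measured 8.10, 12.5 and 8.53 RPKM in Ago2-IP. RNY4 and RNY5 were listed at 0 in all 6.

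The genes whose pattern over the 6 libraries lay nearest to each RNA were taken by the distance between centered log2(RPKM + 0.1) profiles, among 11823 genes that reached 1 RPKM in at least 1 library. For RMRP they were SCARNA2 (distance 1.88), SCARNA5 (2.18), SCARNA10 (3.41), SCARNA7 (3.63) and MIR3609 (3.64). For RPPH1 they were HIST1H1E (1.62), SNORA71D (1.72), SCARNA1 (2.10), HIST1H3B (2.15) and HIST1H2BF (2.21). For TERC they were HIST1H4D (0.48), HIST1H2BB (0.51), MIR3679 (0.75), SNORD116-2 (0.86) and SCARNA9L (0.88). The RNAs themselves were farther apart, with 4.85 between RMRP and RPPH1, 2.93 between RPPH1 and TERC and 6.38 between RMRP and TERC. Several of these genes rest on very few reads in total RNA, and MIR3609, MIR3679 and SNORD116-2 were listed at 0 there. How reads of RMRP and RPPH1 were divided from those of their annotated pseudogene copies is not stated, nor is the strand used in counting, so a part of their reads could come from elsewhere.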

How the data were processed

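RNA of Hep G2 cells was sequenced in 6 libraries, 1 per group, as short single reads on a Genome Analyzer IIx. The authors aligned reads to hg19 with ELANDv2 and deposited RPKM values per gene made with CASAVA 1.7. The annotation, strand and treatment of multiply mapped reads are not given in the sources used here. The 21891 lines of the table gave 21863 symbols, and the 28 symbols on several lines were averaged. Reads per gene were inferred as whole multiples of RPKM steps across libraries (12729 of 15487 genes tried, within 0.005 reads on the scale of the largest value), and depth was taken from 204 small nucleolar RNA genes of known RefSeq length. The inference was tested on simulated data. Intervals were exact Poisson for a level, exact binomial for a ratio of 2 libraries and log-normal for the 4-library score (95%). With 1 library per group no p-value was computed, and a gene was called past 2-fold. Genes at 0 in either library had no ratio. The RNAs and gene lists were chosen with earlier results of these data known. All RNAs were named, lists were counted with their extremes, the 5 nearest profiles were named, and so were genes within 2000 bases. GRCh37 sequence with GENCODE annotation was used for RMRP and TERC. The analysis used Python 3.11.15, numpy 2.4.6, pandas 2.3.3 and scipy 1.17.1. Alternatives were pseudocounts of 0.1 and 1, a minimum of 1 RPKM, median-ratio and summed scaling, a 4-fold threshold and lines kept apart.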

Additional observations from a re-analysis of the deposited data

Results flagged for a closer look

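Directions that differed between mimics or between RNA types were taken from 1 library per group, and the differences were not tested. In Ago2-IP, RMRP had a log2 change of 0.21 with *miR-195* and of -0.46 with *miR-497*, and the first of these turned negative under both rescalings. With *miR-497*, RMRP had a log2 change of 4.11 in total RNA and of -0.46 in Ago2-IP. TERC had a log2 change of -0.25 with *miR-195* and of 0.26 with *miR-497* in total RNA, where it had 2, 2 and 3 reads. With *miR-195*, TERC had a log2 change of -0.25 in total RNA and of 1.15 in Ago2-IP.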

How the results depend on the processing

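No called value of RMRP, RPPH1 or TERC changed sign under any alternative run. Of 190 alternative values of single RNAs, 160 moved by less than their counting interval and 30 by more. At a 4-fold threshold the number of RNAs called higher was 0 in total RNA with *miR-195*, 1 in Ago2-IP with *miR-195*, 0 in Ago2-IP with *miR-497*, 0 between the mimics in Ago2-IP, and 0 in the *miR-195* score. Median-ratio scaling and scaling to equal sums each left 1 RNA called in Ago2-IP with *miR-195* and 0 between the mimics in Ago2-IP. In the *miR-195* score they left 1, RMRP as lower (log2 scores of -1.74 and -1.90), and TERC lost its call (0.89 and 0.73). A pseudocount of 1 left 1 RNA called between the mimics in Ago2-IP. It brought the log2 ratio of TERC in Ago2-IP over total RNA to 2.38, 3.43 and 2.40 in NT, *miR-195* and *miR-497* cells. With it the *miR-195* score lost the call of RMRP (log2 score -0.88) and gained one of RPPH1 as higher (1.27). A minimum of 1 RPKM left 2 RNAs and 1 call in the *miR-195* score. Of the 15 nearest genes, 3 were shared with a ranking by Pearson correlation and 0 with one limited to genes of at least 1 RPKM in all libraries. The sign of TERC in the *miR-497* score went from -0.19 to 0.17 after median-ratio scaling and 0.03 after summed scaling. Counts over all genes depended on the choice, and the ranges that follow include counts at the 4-fold threshold. Genes past 2-fold higher in Ago2-IP over total RNA were 944 in NT cells (165 to 4763 over the alternatives). With the mimics they were 1320 for *miR-195* (202 to 3893) and 990 for *miR-497* (176 to 4737). In total RNA they were 857 with *miR-195* (71 to 916) and 985 with *miR-497* (81 to 985), and 547 genes were lower between the mimics (34 to 547). In Ago2-IP they were 3385 with *miR-195* (550 to 3385), 483 with *miR-497* (76 to 652) and 4939 between the mimics (908 to 4939). In the scores 2802 were higher for *miR-195* (507 to 2801) and 2187 lower for *miR-497* (397 to 2187). Median-ratio scaling brought the *miR-195* score to 8.20% higher and 7.35% lower. No paired analysis was possible because each group has 1 library, the groups compared share only replicate number 1, and the conditions, which are themselves compared, are not replicates of each other. Depth limits TERC most, at 2 to 3 reads in total RNA.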
